A study of Sus scrofa with 18 samples.

Results

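Subcutaneous fat (SAF) of Bama pigs, a miniature breed, was compared between 1 and 6 months of age, which span infancy to adulthood in this breed. The 3 RNA-seq libraries of 1 month (SAF1-1, SAF1-2 and SAF1-3) and the 3 of 6 months (SAF6-1, SAF6-2 and SAF6-3) were taken, 6 of the 18 libraries in the series, and the 3 libraries of 3 months (SAF3) served only to place the intermediate age. All animals were males sired by the same boar, were raised on the same farm and were fasted for a day before slaughter, and none received a treatment. The fat came from the back over the last ribs. Each age was represented by 3 different pigs, so no pig was followed over time, and ages cannot be told apart from the animals that stood for them. The values were read counts per gene, scaled here to CPM (counts scaled to a library of 1000000) with edgeR's TMM factors.

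White fat grows by the formation of new adipocytes from dividing progenitors and by the filling of existing adipocytes with triglyceride. Triglyceride is assembled on a glycerol backbone by acyltransferases, from fatty acids that are taken up from blood or made in the cell out of citrate by ACLY, ACACA, FASN and SCD. In the pig, fat is the main site of that synthesis. Fasting switches off the synthesis genes and switches on genes for the use of fatty acids, such as PDK4. Dividing cells carry transcripts of the mitotic machinery that are shut off when cells leave the cycle, and in many of these genes the promoter holds CCAAT boxes and a cell cycle homology region whose letters are often TTTGAA.

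Library totals ranged from 16404239 counts in SAF6-3 to 19980666 in SAF1-2, and 14867 of 29884 genes passed edgeR's filter on low counts. Of the adipocyte markers, FABP4, a fatty acid carrier, was at 3997 to 7067 CPM in the 6 libraries, and ADIPOQ (adiponectin) at 1363 to 2845 CPM. PLIN1 was at 1014 to 2001 CPM and LIPE at 972 to 1635 CPM. LEP (leptin) was less abundant, at 106 to 202 CPM at 1 month and 5.17 to 58.3 CPM at 6 months. SAF6-3 stood apart from the other SAF libraries. Across genes, log2(CPM + 1) correlated at r = 0.981 between SAF6-1 and SAF6-2, and at 0.933 and 0.936 between them and SAF6-3, lower than the 0.948 to 0.968 between them and the libraries of 1 month. The 10 most abundant genes took 8.59% of the counts in SAF6-3 and 15.19 to 19.28% in the other 5 libraries. In the study's own read filtering, SAF6-3 also differed from the other 5 libraries, with few reads dropped for unread bases. For these reasons the results are given with and without SAF6-3, and the comparison without it is also the one among libraries alike in that filtering.

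A gene was called when edgeR's quasi-likelihood test gave a Benjamini-Hochberg adjusted p below 0.05 and its fold change was above 1.5 in either direction. A positive log2 fold change (log2FC) means a higher level at 6 months. Over all 14867 genes tested, 7739 values (52.1%) were above 0 and 7128 below. Of the genes tested, 12 rose (0.0807%) and 33 fell (0.222%) from 1 to 6 months. At an unadjusted p under 0.05 there were 1881 of the 14867 genes tested, and DESeq2 called 194 of 16120 genes higher and 370 lower. Counts of list members by these 2 measures are given below as descriptions, to be read beside these numbers. No list was tested as a set. The genes that fell included those for mitosis (UBE2C, NDC80, KIF23, BUB1), triglyceride assembly (PCK1, GPAT3, AGPAT2), carbonic anhydrase CA3 and the matrix crosslinker LOXL2. Those that rose included the clock genes NR1D1 and TEF, the mitochondrial enzymes DHODH and COQ8A and the plasma protein gene ITIH3. The smallest absolute log2FC among the 45 was 1.34, and adjusted p lay between 0.037 and 0.049.

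In all 45 called genes every library of 6 months lay outside the range of the libraries of 1 month, on the same side, and differed from their mean by more than 1.5 times, taken on the log2(CPM + 1) scale. A gene that meets both conditions is said below to hold in all 3 libraries. Among all genes tested, 160 held as higher (1.08%) and 542 as lower (3.65%). Ranges without overlap, with no limit on the size, were met by 1141 genes higher at 6 months (7.67%) and 1692 lower (11.4%). Holding is a description and no test, and a call from 3 against 3 libraries nearly requires it. The calls themselves rested on all 6 libraries: with SAF1-1, SAF1-2, SAF1-3 or SAF6-2 left out edgeR called 0 genes, and with SAF6-1 left out it called 1 gene, not among the 45. Between 1148 and 1796 genes were under an unadjusted p of 0.05, and DESeq2 called 463 genes without SAF6-1 and 614 without SAF6-2. With SAF6-3 left out edgeR called 243 genes, all 45 among them. The log2FC of all 45 kept its sign in each of these fits.

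**Figure D1:**
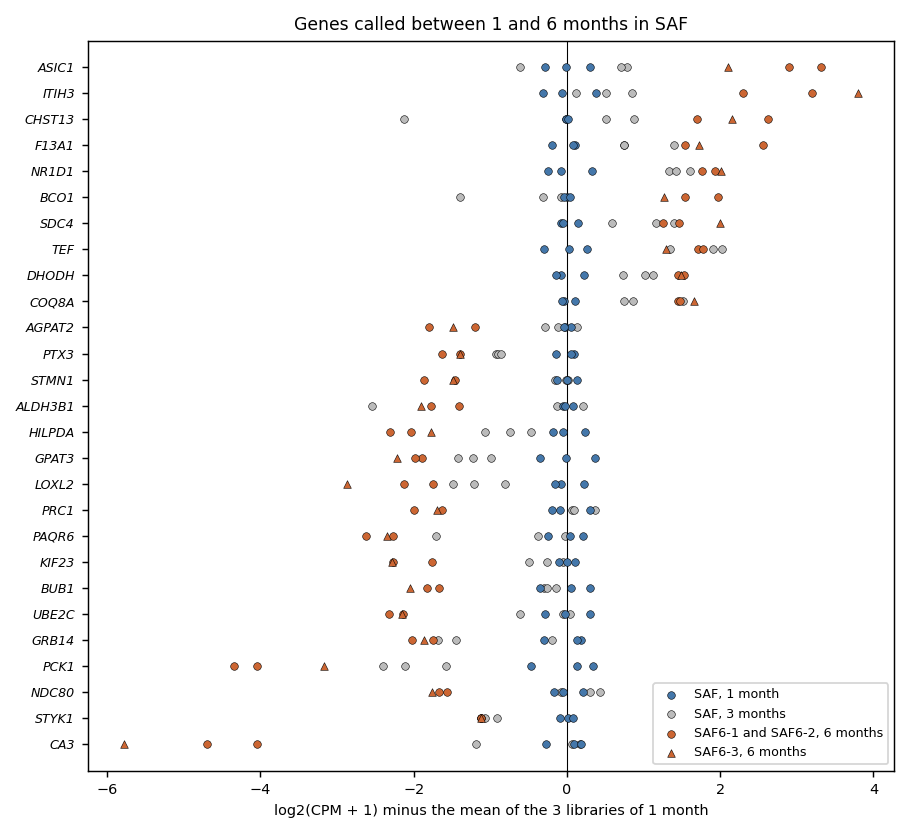
Expression of 27 of the called genes, those that the rule for named genes selects, in each SAF library. The x axis gives log2(CPM + 1) of a library minus the mean of the 3 libraries of 1 month, on a scale set over all 9 SAF libraries. Blue points are libraries of 1 month, grey of 3 months, orange of 6 months, and the triangle is SAF6-3. All orange symbols lie beyond the blue ones in every row, and the grey points lie mostly between them.

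Genes of cell division were lower at 6 months. Among 22 listed genes of mitosis, all tested, KIF23, PRC1 and BUB1 fell, none rose, and 18 held as lower in all 3 libraries of 6 months. The median log2FC of the 22 was -2.41, beside 0.017 over all genes tested, and 21 of 22 values were below 0. Without SAF6-3 the median was -2.14 and 6 of the genes were called lower. The summed level of the list was 225, 234 and 212 CPM in the libraries of 1 month and 65.2, 87.2 and 50.4 CPM in those of 6 months, without overlap. In a bulk sample, fewer dividing cells and less of these transcripts per cell cannot be told apart.

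Promoters of genes of mitosis are shown for the letters CCAAT and TTTGAA, which the choice of the list did not use. BUB1, MKI67 and CDK1 are on the list, and UBE2C is not. Each holds CCAAT, and all but BUB1 also hold TTTGAA. KIF23 and PRC1, on the list and called, hold both only after the gene start and are not shown. The windows are the 100 bases before the start of the RefSeq gene in Sscrofa11.1, written 5′ to 3′ on the strand of the gene, with CCAAT and TTTGAA on either strand in capitals (ATTGG and TTCAAA are the same letters on the other strand).
UBE2C, chr17:48018303-48018402, plus strand: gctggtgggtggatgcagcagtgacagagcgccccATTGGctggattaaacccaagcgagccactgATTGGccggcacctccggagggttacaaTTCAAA
BUB1, chr3:45585088-45585187, plus strand: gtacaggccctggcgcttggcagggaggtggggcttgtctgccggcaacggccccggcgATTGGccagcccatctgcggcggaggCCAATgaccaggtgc
MKI67, chr14:137296313-137296412, minus strand: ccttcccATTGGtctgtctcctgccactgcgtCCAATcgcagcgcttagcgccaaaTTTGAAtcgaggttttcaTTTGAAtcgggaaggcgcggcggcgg
CDK1, chr14:64233845-64233944, plus strand: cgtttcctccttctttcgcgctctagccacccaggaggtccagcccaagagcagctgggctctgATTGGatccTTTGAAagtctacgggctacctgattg
UBE2C and BUB1 were called, and MKI67 and CDK1 held as lower without being called. In windows from 250 bases before to 50 after the start, CCAAT on either strand was in 19 of the 22 promoters (86.4%), beside 35.7% of 20632 promoters of the annotation. TTTGAA was in 10 of 22 (45.5%), beside 14.6%, and both were in 8 of 22 (36.4%), beside 5.86%. Matches of the different letters were counted separately and may overlap. A match is a description of the sequence and not evidence of binding. Promoters of the cholesterol list also held CCAAT often (14 of 16, 87.5%), and 16 collagen promoters held it in 7 cases (43.8%).

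UBE2C, the ubiquitin-conjugating enzyme of the anaphase-promoting complex (chr17:48018403-48021542), was at 5.47, 8.72 and 6.74 CPM at 1 month and at 0.548, 0.754 and 0.731 CPM at 6 months. The log2FC was -3.35 ± 0.35 (SE, n = 3 per age, edgeR adjusted p = 0.037), and the groups were far apart. BUB1, a kinase of the spindle checkpoint (chr3:45585188-45623240), was at 4.55, 3.17 and 5.56 CPM and later at 0.487, 0.646 and 0.261 CPM. Its log2FC was -3.24 ± 0.46 (edgeR adjusted p = 0.047). KIF23, a motor of cytokinesis, went from 8.71, 7.46 and 8.08 CPM to 0.852, 1.62 and 0.835 CPM, and PRC1, which bundles the microtubules of the midzone, from 6.93, 9.42 and 6.38 CPM to 1.10, 1.67 and 1.57 CPM. In both, the lowest library of 1 month was several times above the highest of 6 months. NDC80, a kinetochore protein that is not on the list, fell with a log2FC of -3.90 ± 0.48, from 2.42 to 3.43 CPM down to 0.104 to 0.269 CPM. STMN1 (stathmin), which destabilises microtubules, fell with a log2FC of -1.68 ± 0.19, from 47.0, 56.8 and 51.5 CPM to 13.3, 17.7 and 17.5 CPM. Further mitotic kinase and motor genes, MELK, KIF4A and NEK2, were also called lower, with log2FC of -3.25, -2.46 and -3.33, and are named after their values were seen.

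The proliferation markers MKI67 and TOP2A were not called. MKI67 was at 19.1, 14.7 and 17.1 CPM at 1 month and at 1.89, 3.12 and 0.522 CPM at 6 months, with a log2FC of -3.20 ± 0.55 and an edgeR adjusted p of 0.067. TOP2A, the topoisomerase of dividing cells, was at 25.7, 25.9 and 27.1 CPM and then at 2.31, 5.60 and 1.30 CPM, with an adjusted p of 0.057. Both held as lower in all 3 libraries, and both were called without SAF6-3, at adjusted p of 0.021 and 0.030 in edgeR. SAF6-3 was the lowest of the libraries of 6 months in both genes. Of the genes that did not hold, CCNE2, the cyclin of entry into S phase, had a log2FC of 0.02, and AURKA was at 4.23 CPM in SAF6-3, inside the range of 1 month.

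The level at 3 months was close to that at 1 month for this group. On the scale of the 9 SAF libraries, TOP2A was at 28.3, 18.9 and 30.1 CPM at 3 months, MKI67 at 17.5, 11.9 and 12.4 CPM, and PRC1 at 9.66, 7.64 and 7.86 CPM. In all 3 genes the range of 3 months overlapped that of 1 month and was apart from that of 6 months.

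**Figure D2:**
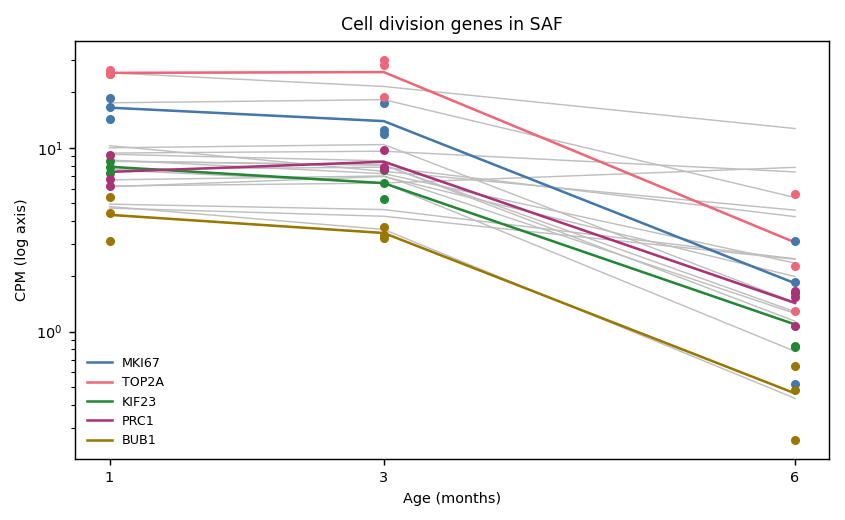
Levels of the 22 listed cell division genes by age. The x axis is age in months and the y axis is CPM on a log axis, scaled over the 9 SAF libraries. Coloured points are single libraries of 5 genes, coloured lines join their means over 3 libraries, and grey lines are the means of the other 17 genes. Most lines are level from 1 to 3 months and drop by 6 months.

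DNA replication genes were less uniform. None of 16 was called in edgeR, 10 were lower at an unadjusted p under 0.05, and DESeq2 called 7 lower. Of 12 genes that were lower without overlap, 6 held, namely MCM2, MCM3 and MCM5 of the replicative helicase, RRM2 and TYMS for nucleotide supply, and the licensing factor CDT1. RRM2, the regulated subunit of ribonucleotide reductase, was at 13.1, 12.9 and 11.5 CPM at 1 month and at 2.43, 3.93 and 1.25 CPM at 6 months (log2FC -2.30 ± 0.41, edgeR adjusted p = 0.070, and 0.036 without SAF6-3). MCM7 was not lower, at 39.5 to 49.6 CPM and then 45.8 to 73.9 CPM. The median log2FC of the list was -0.89.

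Of the genes for triglyceride assembly and fatty acid uptake, 3 of 15 tested fell and none rose, while the median log2FC was -0.36. PCK1, phosphoenolpyruvate carboxykinase, which in fat supplies the glycerol backbone during fasting (chr17:57930507-57936523), was at 350.1, 532 and 617 CPM at 1 month and at 22.8, 27.8 and 52.2 CPM at 6 months. Its mean went from 499.6 ± 136 to 34.3 ± 15.8 CPM (SD, n = 3), a log2FC of -3.87 ± 0.41 (edgeR adjusted p = 0.037). GPAT3, which attaches the first fatty acid to glycerol phosphate (chr8:134912493-135002140), was at 51.8, 31.2 and 39.7 CPM and then at 9.98, 9.10 and 7.67 CPM (log2FC -2.20 ± 0.24). AGPAT2, the next acyltransferase, which lies on an unplaced scaffold, was at 36.8, 38.7 and 36.4 CPM and then at 15.5, 9.75 and 12.4 CPM (log2FC -1.57 ± 0.21, adjusted p = 0.040). All 3 genes were low in SAF6-3 as in the other libraries of 6 months.

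The other steps of this pathway were not called in edgeR. GPAM, the mitochondrial counterpart of GPAT3, had a log2FC of -0.50 ± 0.28. DGAT2, which makes the last bond, was at 1251 to 2039 CPM at 1 month and at 1728, 1676 and 77.4 CPM at 6 months, so that SAF6-3 alone was low. LPL, the lipase that frees fatty acids from lipoproteins, showed the same order, with 1777 to 4141 CPM at 1 month and 3113, 3602 and 967 CPM at 6 months (log2FC -0.20 ± 0.54, edgeR adjusted p = 0.92). The fatty acid transporter CD36 had overlapping groups.

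On the lipid droplet, HILPDA, a protein induced by hypoxia and lipid load that inhibits the lipase ATGL (chr18:19944929-19947080), fell from 55.0, 60.0 and 73.7 CPM to 14.4, 11.5 and 17.3 CPM (log2FC -2.13 ± 0.22, edgeR adjusted p = 0.037). It was the 1 called gene among 18 of lipid droplets and lipolysis. CIDEA, which promotes the fusion of droplets, was at 405, 322 and 424 CPM at 1 month and at 776, 861 and 691 CPM at 6 months and held as higher without being called. ABHD5, the coactivator of ATGL, held as higher as well, at 16.9 to 39.4 CPM and then 45.0 to 97.7 CPM. The droplet coat gene PLIN1 was at 1014 to 1842 and 1329 to 2001 CPM, and LIPE (hormone-sensitive lipase) at 972 to 1173 and 1077 to 1635 CPM, with adjusted p of 0.88 and 0.63 in edgeR. RXRG, a retinoid X receptor that pairs with PPARs (named after its values were seen), fell from 29.9, 23.7 and 24.1 CPM to 9.68, 6.41 and 9.08 CPM (log2FC -1.63), whereas its adipocyte partner PPARG was at 163 to 213 CPM and 190.0 to 217 CPM (log2FC 0.04 ± 0.20, edgeR adjusted p = 0.96).

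Genes of fatty acid synthesis split the libraries of 6 months. FASN, fatty acid synthase, was at 6547, 1762 and 4546 CPM at 1 month, at 26562 and 26020 CPM in SAF6-1 and SAF6-2, and at 137 CPM in SAF6-3. SCD, the desaturase that makes oleate, was at 19136, 2684 and 16460 CPM, then at 38472, 35076 and 57.6 CPM. ACLY, which cuts citrate, was at 1881, 309.6 and 1151 CPM, then at 7628, 6992 and 111 CPM. In each of the 3 genes SAF6-1 and SAF6-2 were above all libraries of 1 month, and SAF6-3 was below all of them. ACACA, acetyl-CoA carboxylase, was at 277 to 1001 CPM and then at 2056, 1870 and 133 CPM, with the same order.

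None of the 17 listed genes of fatty acid synthesis was called in edgeR or DESeq2, none passed an unadjusted p of 0.05, and none held in all 3 libraries. The median log2FC of the list was 0.88, and 15 of 17 values were above 0. edgeR's log2FC weighs the high levels of SAF6-1 and SAF6-2 most. Taken instead between the mean log2(CPM + 1) of each age, the median difference of the list was 0.29, beside 0.003 over all genes tested. The summed level was 38569, 8875 and 32015 CPM at 1 month and 93478, 88523 and 1539 CPM at 6 months, so SAF1-2 was low among the libraries of 1 month and SAF6-3 was the lowest of all. With SAF6-3 left out the median was 1.46 and 3 genes were called higher: SLC25A1, the mitochondrial citrate carrier (log2FC 2.07, edgeR adjusted p = 0.024), MID1IP1, an activator of acetyl-CoA carboxylase (1.86, 0.030), and SREBF1, a transcription factor of the pathway (1.19, 0.040). FASN was not called without SAF6-3 either (log2FC 2.64, adjusted p = 0.069). SLC25A1 was at 249, 169 and 255 CPM at 1 month and at 794, 1057 and 53.0 CPM at 6 months. In the 3 libraries of 3 months FASN was at 26466, 8899 and 12466 CPM on the scale of the 9 libraries, all above 1 month.

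The summed level of the cholesterol list showed the same split, at 1103, 741 and 984 CPM at 1 month and at 1645, 1781 and 518 CPM at 6 months. That of citrate and NADPH supply was 5917, 4109.7 and 5310.1 CPM and then 9228, 8356 and 5131 CPM, so that SAF6-3 lay inside the range of 1 month. Among 8 genes of supply none was called in edgeR, 1 was higher at an unadjusted p under 0.05, DESeq2 called 1 higher, and PC (pyruvate carboxylase) alone held as higher. PGD, a source of NADPH, was at 207 to 262 CPM at 1 month and at 569, 460 and 87.9 CPM at 6 months, and was called higher without SAF6-3 (log2FC 1.10 in that fit). None of 16 cholesterol genes was called in edgeR or DESeq2, and 1 was higher at an unadjusted p under 0.05. Without SAF6-3, MVK, INSIG1 and FDPS were called higher. INSIG1, which restrains the sterol sensor SCAP, was at 68.0, 32.3 and 44.3 CPM and then at 167, 263 and 20.3 CPM.

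The opposite order was seen in some fasting genes. PDK4, the kinase that blocks the use of pyruvate, was at 181, 187 and 236 CPM at 1 month and at 80.0, 139 and 1393 CPM at 6 months, so SAF6-1 and SAF6-2 were below all libraries of 1 month and SAF6-3 far above (log2FC 1.42 ± 0.95, edgeR adjusted p = 0.60). Without SAF6-3 its log2FC was -0.85 (adjusted p = 0.17). CPT1A, the gate of mitochondrial fatty acid entry, was at 80.8 to 89.0 CPM and then at 58.7, 44.3 and 166 CPM. ANGPTL4, an inhibitor of LPL, was at 101 to 167 CPM and then at 83.4, 87.5 and 629 CPM. In both, too, SAF6-3 was the highest of the 6 libraries and the others of 6 months were below all of 1 month. Of 16 genes of oxidation and fasting none was called, 1 was higher and 1 lower at an unadjusted p under 0.05, and DESeq2 called 1 each way. The median log2FC of the 16 was 0.01, with 8 values above 0 and 8 below. FKBP5 and UCP2 did not follow the order of PDK4. FKBP5, a chaperone induced by glucocorticoids, held as higher, at 64.1, 28.8 and 37.8 CPM and then 299.7, 163 and 320 CPM (log2FC 2.58 ± 0.39, adjusted p = 0.053, and 0.042 without SAF6-3). UCP2, a mitochondrial carrier of the uncoupling protein family, held as lower, at 15.6, 20.8 and 13.6 CPM and then 8.70, 8.73 and 5.90 CPM (log2FC -1.10 ± 0.26, edgeR adjusted p = 0.15).

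**Figure D3:**
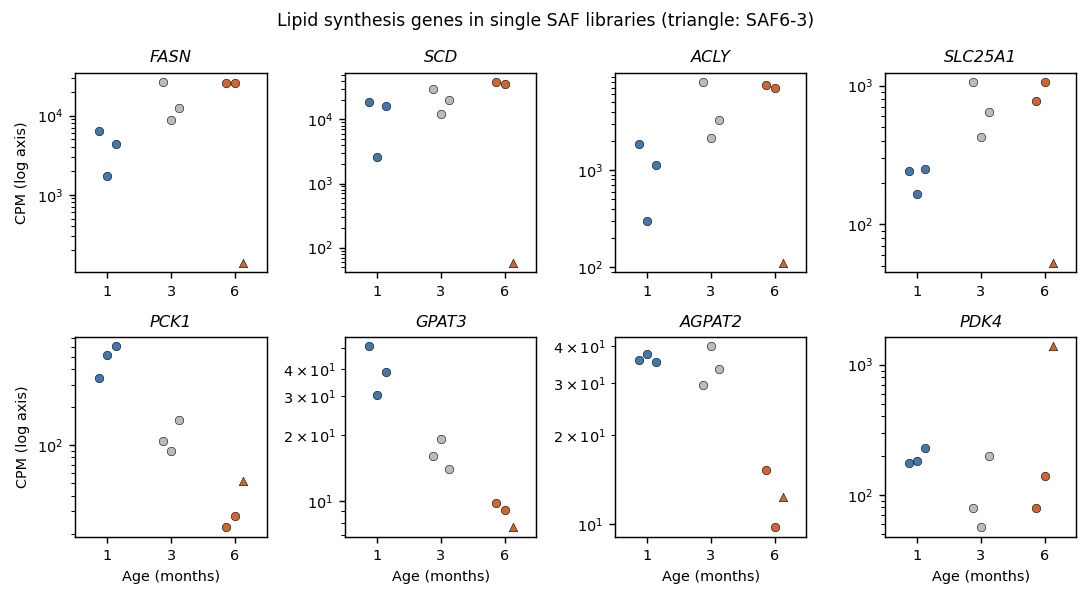
Levels of 8 lipid genes in the 9 SAF libraries. The x axis is age in months, the y axis is CPM on a log axis with its own range in each panel, points are single libraries and the triangle is SAF6-3. In FASN, SCD, ACLY and SLC25A1 the triangle lies below every other library, in PDK4 above every other, and in PCK1, GPAT3 and AGPAT2 the 3 libraries of 6 months lie together below those of 1 month.

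The 5 genes with the largest gap of SAF6-3 below the other libraries of 6 months, among genes of at least 50 CPM, were SCD, FASN, KLHL31, CYP1A1 and ACLY. CYP1A1, a target of the aryl hydrocarbon receptor, was at 107 and 108 CPM in SAF6-1 and SAF6-2 and at 0.574 CPM in SAF6-3. KLHL31 was at 169.9, 137 and 0.365 CPM in the same libraries. Above the others stood SLA-3, RRAGD, KLF11 and 2 genes without a symbol. RRAGD, a GTPase of lysosomal nutrient sensing, was at 2.57 to 3.29 CPM in the libraries of 1 month, at 2.86 and 3.12 CPM in SAF6-1 and SAF6-2, and at 67.1 CPM in SAF6-3. SLA-3 is a class I gene of the major histocompatibility complex, a family of near-identical copies between which reads may be shared, so its 6.79, 7.97 and 176 CPM are uncertain.

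Some clock genes rose, and did so in SAF6-3 as in the other libraries of 6 months. Of 13 tested, NR1D1 and TEF rose and none fell, and 5 held as higher. At an unadjusted p under 0.05 there were 6 higher and 2 lower genes, and 6 were higher and 3 lower without overlap. NR1D1 (REV-ERB alpha), a repressor of the clock and of lipid genes (chr12:22263549-22274131), was at 5.58, 7.71 and 4.84 CPM at 1 month and at 22.4, 24.9 and 26.6 CPM at 6 months (log2FC 2.03 ± 0.23, edgeR adjusted p = 0.037). TEF, an activator of clock output, was at 26.1, 31.0 and 20.6 CPM and then at 85.4, 87.6 and 63.1 CPM (log2FC 1.60 ± 0.22, adjusted p = 0.046). NR1D2, PER3 and CIART held as higher without being called, CIART with 9.52 to 10.2 CPM and then 27.7, 21.3 and 18.2 CPM (log2FC 1.18 ± 0.21, adjusted p = 0.073, and 0.030 without SAF6-3). The activators ARNTL and NPAS2 had log2FC of -0.47 and -0.61, and CRY1 of -0.48, each without overlap and none of them called. At 3 months NR1D1 was at 16.1, 19.8 and 17.3 CPM and TEF at 64.8, 104 and 96.5 CPM, above all libraries of 1 month. NR1D1 overlaps THRA on the genome, so their reads may be mixed. The hour at which tissue was taken is not given in the sources used here.

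Among the listed collagens and other genes of the extracellular matrix, LOXL2 was the 1 gene called. LOXL2, a lysyl oxidase that crosslinks collagen (chr14:7435861-7540699), fell from 489, 464 and 604 CPM to 116, 149.8 and 68.4 CPM (log2FC -2.22 ± 0.32, edgeR adjusted p = 0.049). The call was lost with DESeq2's size factors, at a log2FC of -2.20, and with a replicate block. With that block, 1 gene of the list of matrix genes other than collagens was called. FBN2, the fibrillin of developing tissue, held as lower at 16.8, 46.3 and 26.6 CPM and then 1.52, 7.43 and 5.64 CPM. Of 16 collagens none was called in edgeR or DESeq2, 1 was lower at an unadjusted p under 0.05, and all 16 had a log2FC below 0, with a median of -0.79 and of -0.43 without SAF6-3. COL5A2 alone held, at 2398 to 2708 CPM and then 1230, 1558 and 365 CPM. COL3A1 was at 25748, 32224 and 27611 CPM and then at 16268, 22346 and 2040 CPM, without overlap, but COL1A1, at 7461, 26303 and 9801 CPM and then 10243, 12229 and 2042 CPM, overlapped. SAF6-3 was the lowest of the 6 libraries in both, and SAF1-2 the highest. The median of -0.75 over 19 other matrix genes was likewise nearer to 0 without SAF6-3, at -0.52.

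Among secreted and signalling genes of the adipocyte, GRB14 and PIK3C2G fell. GRB14, an adaptor that inhibits the insulin receptor, was at 3.09, 4.74 and 4.53 CPM and then at 0.487, 0.215 and 0.365 CPM (log2FC -3.52 ± 0.44, edgeR adjusted p = 0.037). PIK3C2G, a class II phosphoinositide kinase (named after its values were seen), was at 31.2, 16.7 and 10.9 CPM and then at 1.22, 0.431 and 0.313 CPM. Of 17 listed genes of insulin and IGF signalling none was called, 3 were higher and 4 lower at an unadjusted p under 0.05, and DESeq2 called 1 lower. IGF2BP3, an RNA-binding protein of fetal tissue, held as lower at 4.08 to 6.60 CPM and then 1.03 to 1.62 CPM (edgeR adjusted p = 0.090). IGFBP4, a binding protein of IGFs, was at 149, 138 and 171 CPM and then at 68.3, 57.9 and 127 CPM (log2FC -0.85, edgeR adjusted p = 0.32) and was called lower without SAF6-3 (log2FC -1.25, adjusted p = 0.030). IGF1 was at 212.8, 109 and 207 CPM and then at 113, 163 and 18.7 CPM, IGF2 at 148 to 256 and 90.2 to 195 CPM, and IGFBP5 at 19.7 to 41.4 and 5.96 to 47.1 CPM. IGF1, IGF2 and IGFBP5 had overlapping groups.

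Of the adipokines, 10 were tested and none was called, 2 were higher and 1 lower at an unadjusted p under 0.05, and DESeq2 called 2 higher and 1 lower. LEP (leptin), which normally follows fat mass, was at 171, 106 and 202 CPM at 1 month and at 58.3, 18.8 and 5.17 CPM at 6 months. It held as lower in all 3 libraries, with a log2FC of -2.54 ± 0.76 and an edgeR adjusted p of 0.24. AGT, angiotensinogen, held as higher at 418 to 527 CPM and then 988, 1083 and 805 CPM (adjusted p = 0.14, and 0.044 without SAF6-3). ADIPOQ had a log2FC of 0.26 ± 0.33. The progenitor gene DLK1, an inhibitor of adipocyte formation, was at 1.14, 7.76 and 5.51 CPM and then at 0, 0 and 0.209 CPM, held as lower and had an adjusted p of 0.090. Of 13 progenitor genes tested, 9 had a log2FC below 0, beside 7128 of all 14867 genes tested, and none was called. PDGFRA, a receptor of progenitors, was at 132, 234 and 140 CPM and then at 111, 179.8 and 113 CPM, with overlap.

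CA3, carbonic anhydrase of adipocytes and of slow muscle fibres (chr4:51227485-51237861), was abundant at 1 month and scarce at 6 months. It was at 1377, 1777 and 1887 CPM at 1 month and at 62.4, 97.5 and 28.9 CPM at 6 months (log2FC -4.74 ± 0.50, edgeR adjusted p = 0.037), and at 712, 1700 and 1821 CPM at 3 months. Beside it, the summed level of skeletal muscle markers was 7.09, 25.4 and 97.3 CPM at 1 month and 3.47, 10.1 and 4.54 CPM at 6 months. None of 9 tested muscle markers was called in edgeR, 5 were lower at an unadjusted p under 0.05, and DESeq2 called 1. ACTA1, a defining muscle gene, was at 0.217, 4.33 and 29.3 CPM and then at 0.0609, 1.35 and 0.0522 CPM. The part of muscle RNA in the fall of CA3 was not tested.

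PAQR6, of the progestin and adiponectin receptor family (chr4:93802721-93807624), fell from 379, 463 and 524 CPM to 91.8, 70.9 and 86.5 CPM, with the smallest p of any gene that fell (log2FC -2.45 ± 0.23). ALDH3B1, an aldehyde dehydrogenase of membranes, fell with a log2FC of -1.81 ± 0.20, from 31.6, 32.2 and 34.5 CPM to 11.6, 8.62 and 7.88 CPM. STYK1, a kinase-like membrane protein, had 77 counts in all at 1 month and 1 count in each library of 6 months. Scaled by library totals and not by TMM, the ratio was 24.7, with an exact 95% interval of 8.14 to 122 for counting error only. Other called genes that fell, named after their values were seen, were PAK1, GALNT16, GSG1, RET, TMEM229B, MST1 and SCIN, with log2FC from -5.16 (GSG1) to -1.51 (PAK1). One gene without a symbol had 99 counts at 1 month and none at 6 months.

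Among the genes that rose, DHODH, the mitochondrial enzyme of pyrimidine synthesis (chr6:14942898-14956000), was at 9.04, 8.62 and 11.4 CPM and then at 29.4, 27.4 and 28.5 CPM (log2FC 1.55 ± 0.19). COQ8A, needed for coenzyme Q synthesis (chr10:14597237-14643394), was at 99.4, 109.9 and 97.3 CPM and then at 279, 279 and 320.3 CPM (log2FC 1.52 ± 0.18). ITIH3, a heavy chain of inter-alpha-trypsin inhibitor that binds hyaluronan, was at 43.4, 31.8 and 26.4 CPM and then at 311, 163 and 466 CPM (log2FC 3.21 ± 0.41). ASIC1, a proton-gated channel, went from 1.14, 0.756 and 1.65 CPM to 20.5, 14.8 and 8.14 CPM, and CHST13, a chondroitin sulfotransferase, from 5.36 to 5.51 CPM to 38.3, 19.3 and 27.2 CPM. BCO1, which cleaves beta-carotene to retinal, had a log2FC of 1.69 ± 0.23, and SDC4, a heparan sulfate proteoglycan, of 1.63 ± 0.23. In each of these genes the lowest library of 6 months was above the highest of 1 month.

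Genes of immune cells and plasma proteins moved both ways. F13A1, the transglutaminase of clotting that resident macrophages also make, rose from 9.91, 12.4 and 12.1 CPM to 35.0, 70.8 and 39.5 CPM (log2FC 2.07 ± 0.30, edgeR adjusted p = 0.047). The scavenger receptor CD163 held as higher, at 27.9, 47.6 and 36.9 CPM and then 62.3, 125 and 248 CPM, with an adjusted p of 0.17. None of 13 macrophage markers was called, 1 was higher and 1 lower at an unadjusted p under 0.05, DESeq2 called the same numbers, and their summed level overlapped, at 395 to 732 CPM and 563 to 1284 CPM. PTX3 (pentraxin), an innate immune protein, fell from 27.4, 26.6 and 23.1 CPM to 9.07, 7.38 and 8.98 CPM (log2FC -1.60 ± 0.19), and the leukocyte actin bundler LCP1, named after its values were seen, fell with a log2FC of -1.34 ± 0.18. Lymphocyte markers, beside LCP1, summed to 19.6 to 39.2 CPM at 1 month and 16.6 to 27.2 CPM at 6 months, and 6 of 7 tested had a log2FC below 0. None of them was called by edgeR or DESeq2, and 3 were lower at an unadjusted p under 0.05. S100A11, a calcium-binding protein also named after its values were seen, fell with a log2FC of -1.65 ± 0.21. Whether changed cell numbers had a part in these values was not tested.

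Complement genes were led by C2, which held as higher at 24.0, 29.0 and 21.0 CPM and then 58.7, 60.6 and 52.1 CPM but was not called (log2FC 1.21 ± 0.18, edgeR adjusted p = 0.053, and 0.030 without SAF6-3). C1S, the serine protease of the classical pathway, held as well, at 508 to 707 CPM and then 971, 1122 and 1506 CPM. None of 11 complement genes was called, 2 were higher and 1 lower at an unadjusted p under 0.05, and DESeq2 called 2 higher. Of the 12 genes of the interferon response none was called, IFI6 and CXCL10 held as lower, 2 were lower at an unadjusted p under 0.05, and DESeq2 called 2 lower.

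Markers of other cells showed no call in edgeR with all 6 libraries. Without SAF6-3, CNN1 and S100A12 were called higher. CNN1 (calponin of smooth muscle) was at 18.3, 16.7 and 14.2 CPM and then at 55.5, 32.1 and 10.2 CPM, with a log2FC of 0.99, and of 1.44 without SAF6-3. S100A12, a calcium-binding protein of neutrophils, was at 1.95, 4.79 and 3.04 CPM and then at 27.9, 12.1 and 5.01 CPM, with a log2FC of 2.20, and of 2.63 without SAF6-3. The endothelial list had a median log2FC of -0.01, with PECAM1 at 552 to 832 CPM and 561 to 862 CPM. Smooth muscle and pericyte markers had a median of 0.30, adipose progenitors of -0.35, and neutrophil and mast cell markers of 0.76 over 6 tested genes. Peripheral nerve markers had a median of -0.94 over 8 genes, and their sum was highest in SAF1-2, at 419 CPM against 161 to 253 CPM in the others. Skin epithelium, mesothelium and blood cells left 2 tested genes each, and KRT1, KRT5 and DSG1 of skin were at 0 counts in all 6 libraries. At an unadjusted p under 0.05 there were 0 endothelial genes, 1 smooth muscle gene and 2 neutrophil or mast cell genes on the higher side, and 2 progenitor and 3 nerve genes on the lower side, of which DESeq2 called 0, 1, 1, 1 and 1. Adipocyte transcription factors had a median of 0.04 with CEBPD and KLF15 held as higher, steroid hormone genes of 0.10, and heat shock and immediate early genes of 0.11.

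**Figure D4:**
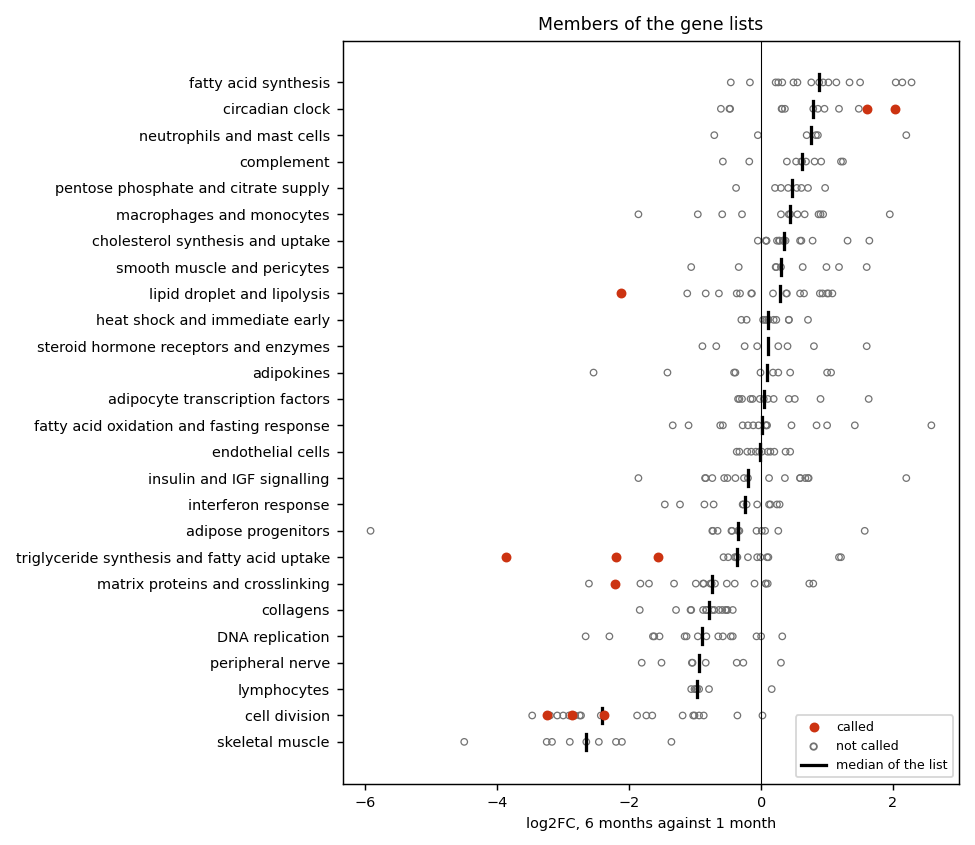
Log2FC between 1 and 6 months for members of the 26 gene lists with at least 5 tested genes. Each circle is a gene, red when called, and the black bar is the median of its list. Cell division lies farthest below 0 among the lists with called genes, fatty acid synthesis has the highest median with no gene called, and the clock list holds 2 called genes on the higher side.

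The called genes were chosen for the distance between 1 and 6 months, so a mean of 3 months in between says little. On the scale of the 9 libraries it lay between in 41 of 45 genes, a share not set against all genes. The exceptions were NDC80, PRC1, BCO1 and TEF. Many means lay near an end age. On the log2(CPM + 1) scale, 0.03 of the change was reached by 3 months in STMN1 and 0.92 in STYK1. Single libraries also split, with ALDH3B1 at 4.64, 37.2 and 29.1 CPM at 3 months. Of the 33 genes that fell, the mean of 3 months was nearer to 1 month in 18 and nearer to 6 months in 15. The mitotic genes, CA3, STMN1 and AGPAT2 were nearer to 1 month: STMN1 was at 45.2, 51.0 and 49.9 CPM at 3 months. PCK1, at 108, 89.2 and 157.7 CPM, GPAT3, at 16.1, 19.2 and 13.9 CPM, and STYK1 were nearer to 6 months. Of the 12 that rose, 5 were nearer to 1 month, among them ITIH3, ASIC1 and CHST13, and 7 nearer to 6 months, among them TEF and NR1D1.

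Of the changes called from SAF6-1 and SAF6-2, more of the lower than of the higher genes held in SAF6-3, a difference given as counts and not tested. Without SAF6-3, edgeR called 140 of 15227 genes higher (0.919%) and 103 lower (0.676%). Of the 103 genes lower in SAF6-1 and SAF6-2, 92 held in SAF6-3 (89.3%), beside 24.6% of all genes with a negative log2FC in that fit, and 4 lay on the other side of the mean of 1 month. Of the 140 higher genes, 40 held in SAF6-3 (28.6%), beside 17.6% of all genes with a positive log2FC, and 75 lay on the other side of that mean, 45 of them by more than 1.5 times on the same scale. In all, 132 of 243 called genes held (54.3%, Wilson 95% interval 47.8 to 60.7%, for counting error only since genes are not independent). The libraries of 1 month entered both the calls and this comparison. With SAF6-1, SAF6-2 or SAF6-3 left out in the same way, DESeq2 called 463, 614 and 1116 genes. These held in the library left out in 76.5%, 66.8% and 45.9% of cases, beside 16.4%, 13.6% and 20.8% of all genes tested. At a log2FC limit of 1 the shares were 79.2%, 69.4% and 56.5%. The sets of calls differ, and those without SAF6-1 or SAF6-2 used SAF6-3 in the fit.

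**Figure D5:**
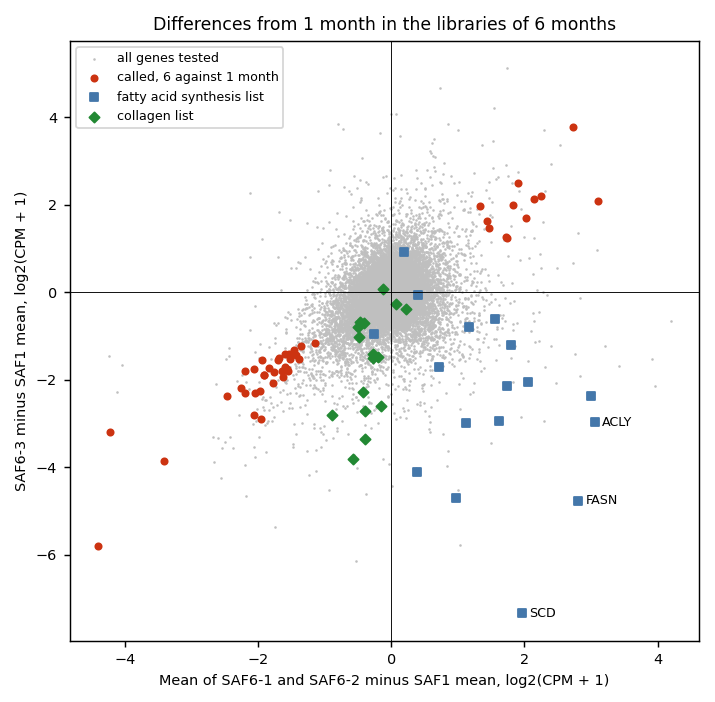
Difference from 1 month in SAF6-3 against the mean difference in SAF6-1 and SAF6-2. Both axes are differences in log2(CPM + 1) from the mean of the 3 libraries of 1 month. Grey points are all genes tested, red points the 45 called genes, blue squares fatty acid synthesis and green diamonds collagens. Red points lie in the lower left and upper right, most blue squares lie at the lower right, with SCD at the bottom, and most green diamonds lie below 0 on the y axis and nearer to 0 on the x axis.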

How the data were processed

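Paired-end RNA-seq reads of the 6 SAF libraries were trimmed with fastp, aligned to Sscrofa11.1 with HISAT2 2.0.4 (version from the submitters' processing notes) and counted per gene with HTSeq-count, and the authors deposited the raw counts without normalization. Which annotation release was used, and whether counting was stranded, is not given in the sources used here, so reads of overlapping genes may be mixed. Groups came from the sample labels.

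Counts were tested with edgeR 4.0.16 (quasi-likelihood, TMM, filterByExpr, R 4.3.3) on 3 against 3 libraries. Levels are TMM-scaled CPM; log scales add 1 CPM. Locations and promoters were read from the RefSeq annotation and genome of Sscrofa11.1, where 29862 of 29884 genes were found. Alternatives were DESeq2 1.42.0, limma 3.58.1 (voom with quality weights), robust fitting, all 9 SAF libraries, a replicate block, other size factors, other filters and each library left out; library totals as scaling were chosen after seeing the data. Other work used Python 3.11.15, pandas 2.3.3, numpy 2.4.6 and scipy 1.17.1. The scripts were tested on simulated data.

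The members and the 29 lists, with 373 of 382 genes matched, were chosen with earlier results of these data known. Genes named by rule are the 12 of smallest p in each direction whose groups did not overlap (C2 and FKBP5, not called, complete the higher side). The rule also takes up to 3 members per list called with or without SAF6-3, 22 genes set by name, and the 5 largest gaps of SAF6-3 each way. Further genes in the text, such as CIDEA, CPT1A, ANGPTL4, UCP2 and COL5A2, are examples that this rule did not pick. Only some of them are marked as such where they appear. Genes without a symbol were counted and not named, and 1 called gene is not reported here. Libraries of VAF were not used here.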

Additional observations from a re-analysis of the deposited data

How the results depend on the processing

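The number of called genes, 45 from edgeR, was 188 with all 9 SAF libraries in one fit, 564 with DESeq2, 100 with no filter on low counts and 887 with voom quality weights (which gave SAF6-3 a weight of 0.207), and 0 to 243 with single libraries left out. DESeq2 and voom called all 45, the fit of 9 libraries 41, and scaling by library totals, chosen after seeing the data, 34 of 45, with 47 calls. All 45 had the same sign throughout. Genes that held in all 3 libraries numbered 702, and 236 with a limit of 1 on the log2 scale in place of the 1.5-fold limit. They were 22.8% higher genes, and 17.1% with library totals. The share held in SAF6-3 was 54.3%, and 45.9% with DESeq2's calls. Called cell division genes, 3 in edgeR, were 11 with the 9 libraries, 16 with DESeq2, 6 with no filter, 18 with voom and 0 to 6 with libraries left out. Called triglyceride genes, 3 in edgeR, were 4 with voom, 2 with a replicate block and 0 to 3 with libraries left out. KLF11 turned from a log2FC of 0.45 to -1.83 without SAF6-3 (edgeR adjusted p = 0.044), in a range up to 0.95 over the libraries left out. PDK4, not called in either fit, went from 1.42 to -0.85 without SAF6-3. LOXL2 was not called with DESeq2's size factors or a replicate block. The cause of these shifts was not tested.

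The ages share replicate numbers, but deviations of same-numbered libraries correlated at 0.053, -0.050 and -0.042, and the pigs of the ages differ, so the numbers do not pair them. A replicate block gave 35 called genes, 20 of the 45 among them, and 1 cell division gene. Depth limits genes under 1 CPM, such as STYK1 and GSG1, which rest on few counts at 6 months. Between libraries the biological coefficient of variation was 0.321, and 0.253 without SAF6-3.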
